A study of Mus musculus with 20 samples.

Results

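The genes described here are 10 genes of glucocorticoid hormone signaling in the hippocampus. They are the receptors Nr3c1 and Nr3c2, the enzyme gene Hsd11b1, and the hormone-responsive genes Fkbp5, Sgk1, Tsc22d3, Zbtb16, Hif3a, Pdk4 and Plin4. These were found by their symbols in the deposited gene map, which held 10 of the 10 among 48709 genes, and all 10 were among the 19797 genes that passed the filter on low counts. Plin4 was chosen by its measured level, lower in nPM females than in control females, so its values in females are a description and carry no test. The other 9 were taken as receptors or known steroid targets.

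Glucocorticoids, corticosterone in the mouse, enter cells and bind the glucocorticoid receptor encoded by Nr3c1 and the mineralocorticoid receptor encoded by Nr3c2, which has the higher affinity for the hormone. The hormone-bound receptor moves to the nucleus, binds DNA elements near its target genes and raises or lowers their transcription. The hippocampus is rich in both receptors and takes part in the feedback that ends a stress response.

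RNA of the hippocampus was sequenced from 20 young adult C57BL/6 mice (C57BL/6J in the methods), with 5 females and 5 males from control dams and as many from dams exposed to nPM. The nPM mice were born to dams that inhaled nPM, a nano-sized fraction of urban particulate matter, 5 h a day on 3 days a week from gestational day 2 until birth, and the control mice to dams that breathed filtered air. The labels write the dose as 300 mg/m3, where the methods have μg/m3. All 4 groups were of the same strain. The methods describe injections of EdU, a label of dividing cells, in males, and also state that all animals received it, so whether females did is unclear. Ages were 17.71 to 18.29 weeks in females and 18.57 to 19.14 weeks in males, so sex and age cannot be told apart in these samples, nor can EdU if males alone received it. The litter of a mouse is not in the labels, so littermates could not be identified, and the p-values measure the spread between mice whatever their litters.

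Between 19092067 and 38663408 reads were counted per sample (median 29468930), and every member had at least 105 counts in every sample. Levels are given as CPM, the usual depth-normalised unit in which a count is set against the TMM-scaled total of its sample, and 3 counts are worth 0.0776 to 0.157 CPM before that scaling. Marker genes of the dentate gyrus, CA1 and CA2/CA3 fields summed to at least 120 CPM, 199 CPM and 191 CPM in every sample, and Xist and Y-linked genes separated the 20 samples by their labelled sex. The summed level of 8 choroid plexus markers ran from 32.7 to 8288 CPM, with both low and high samples in 3 of the 4 groups and no sample above 504 CPM in control females. In whole tissue, fewer cells of a type and less RNA per cell cannot be told apart.

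Per kilobase of the length used for counting (RPKM), Nr3c2 and Sgk1 had the highest levels of the 10 genes and Hif3a the lowest. Over the 20 samples the mean was 42.1 ± 6.73 RPKM for Nr3c2, 35.7 ± 10.5 for Sgk1, 19.6 ± 3.52 for Nr3c1, 17.7 ± 3.42 for Tsc22d3 and 16.7 ± 5.35 for Zbtb16. It was 8.30 ± 1.69 RPKM for Fkbp5, 6.41 ± 1.02 for Hsd11b1, 5.36 ± 3.19 for Plin4, 4.07 ± 0.996 for Pdk4 and 1.43 ± 0.859 for Hif3a (SD, n = 20). Neighbours in this order overlapped over the 20 samples. In control females, Sgk1 lay above the next gene, Zbtb16, with no overlap, and Plin4 was 7th; in control males Plin4 was 9th and lay above Hif3a with no overlap. The spread over samples differed widely, from a highest level 1.74 times the lowest for Hsd11b1 to 8.83 times for Plin4 and 9.24 times for Hif3a.

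**Figure D1:**
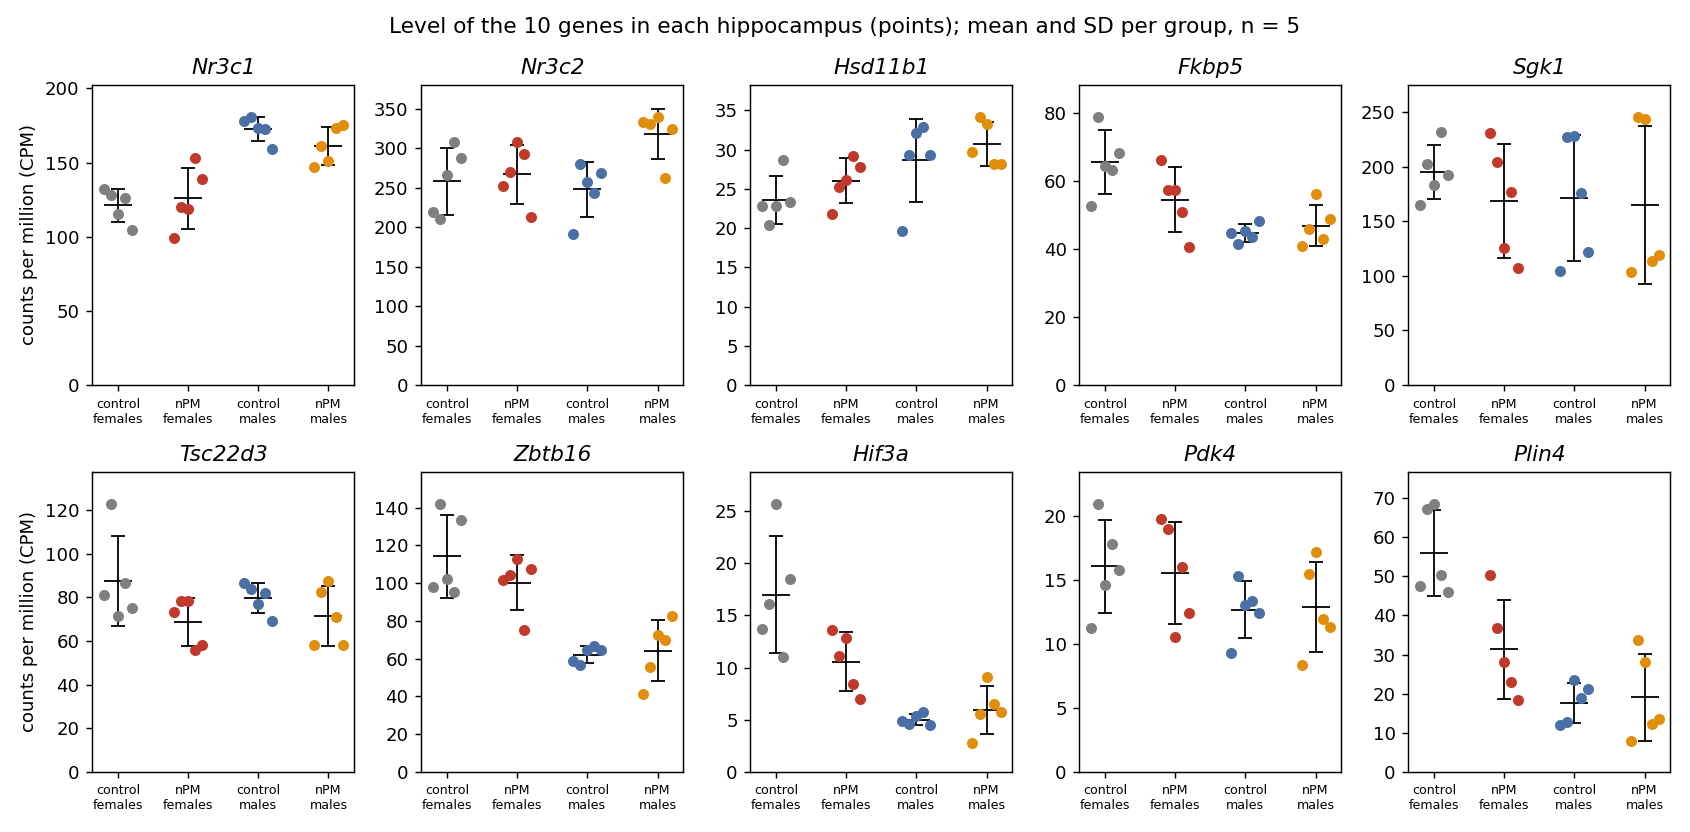
Level of each of the 10 genes in every sample, in CPM on a linear axis from 0, for females of the control (grey) and nPM (red) groups and for males of the control (blue) and nPM (orange) groups. Points are single mice, and black bars are the mean and SD of 5 mice. Plin4 and Hif3a are highest in control females, Nr3c1 is higher in males, and Sgk1 splits widely within nPM males.

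Plin4 encodes perilipin 4, a protein that coats small lipid droplets. Its gene (ENSMUSG00000002831.13, chr17:56100591-56109803, minus strand, mm10) overlaps Hdgfl2 on the opposite strand, which had a mean of 1270.0 counts, and the strand setting of the counting is not given in the sources used here. Plin4 levels were 47.5, 67.3, 68.6, 50.4 and 46.1 CPM in control females and 50.3, 36.7, 28.1, 23.1 and 18.5 CPM in nPM females. The highest nPM female, at 50.3 CPM, lay within the range of the controls, and the other 4 lay below every control. That mouse, nPM female 1, stood apart in its striatal marker sum, 271 CPM where the others had 35.1 to 103 CPM. Its choroid plexus sum was the highest of the 20 samples (8288 CPM), though control male 4 had 7384 CPM. The part of either sum in its Plin4 level was not tested. The means were 56.0 ± 11.03 and 31.3 ± 12.6 CPM (SD, n = 5), a log2 fold change of -0.89 (SE 0.231), or a change of -45.9%; this is the difference by which the gene was chosen. Without any one female the log2 fold change stayed between -1.10 and -0.70.

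In males, which had no part in the choice of Plin4, no such difference was seen. Levels were 11.97, 12.6, 23.4, 18.8 and 21.3 CPM in control males and 7.77, 33.7, 28.0, 12.2 and 13.4 CPM in nPM males. The groups overlapped: nPM males 2 and 3 lay above the control range, nPM males 4 and 5 within it and nPM male 1 below it. The log2 fold change was -0.09 (limma p = 0.812, SE 0.367, exact permutation p = 0.905, two-sided), and its sign changed with the test used (0.11 with edgeR). The log2 difference between the male and the female effect was 0.82 (SE 0.46), given without a test because the female values chose the gene. Control males lay below every control female, a lack of overlap that 19.8% of all genes showed in either direction. The control females had a part in the choice of Plin4, so this is a description. In nPM mice the sexes overlapped, with males at up to 33.7 CPM and females at 18.5 to 50.3 CPM. The mean was 18.3 ± 8.24 CPM in all males against 43.7 ± 17.1 CPM in all females (SD, n = 10).

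Among the other members, gestational nPM changed no gene past the threshold in females. At limma p under 0.005, 0 of the 9 tested members differed, where 0.0909% of all genes did (18 of 19797), and none passed an adjusted p of 0.05, which 0 genes in the table passed. At an unadjusted p under 0.05 it was 1 of 9, Hif3a, against 1.99% of all genes, and edgeR and DESeq2 also called 0 of 9 at 0.005. The 6 targets other than Plin4 all had a log2 fold change below 0, with a median of -0.25, where 48.8% of all genes were below 0. The 6 values come from the same 10 mice and are not 6 independent observations. They also come from the females in which Plin4 was chosen, and several of these targets followed Plin4 from mouse to mouse, as given below. Their shared direction is therefore a description and no separate support. No member's samples were separated between nPM and control females, which 0.364% of all genes showed.

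Hif3a, which encodes a hypoxia-inducible factor subunit that can restrain the other family members, had the largest female difference among the tested members. Its gene (ENSMUSG00000004328.15, chr7:17031507-17062427, minus strand) had 13.7, 16.1, 25.7, 11.05 and 18.5 CPM in control females and 13.6, 11.1, 12.8, 8.38 and 6.99 CPM in nPM females. Of the nPM females, 3 lay within the control range and 2 below it. The log2 fold change was -0.63 (limma p = 0.0238, SE 0.246, adjusted p = 1), or a change of -35.5%, and the exact permutation test gave p = 0.0397 where 0.00794 is the smallest it can give. Without any one of 7 of the 10 females, the exact p was above 0.05, with control female 3, the highest sample, giving the smallest difference (-0.51, exact permutation p = 0.0952). In males Hif3a had 4.89, 4.54, 5.32, 5.72 and 4.50 CPM in controls and 2.78, 5.54, 9.12, 6.52 and 5.72 CPM after nPM, a log2 fold change of 0.14 (limma p = 0.604, exact permutation p = 0.603, SE 0.264), and the difference between the sexes did not pass the test (limma p = 0.0605).

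Tsc22d3, the gene of the anti-inflammatory protein GILZ (ENSMUSG00000031431.13, chrX:140539528-140600659, minus strand), had 80.99, 123, 71.6, 86.8 and 75.1 CPM in control females and 73.3, 78.4, 78.3, 55.7 and 58.3 CPM in nPM females. Of the nPM females, 2 lay below all controls, and control female 2 lay far above the rest. The log2 fold change was -0.32 (limma p = 0.0562, exact permutation p = 0.0952, SE 0.15) in females and -0.17 (limma p = 0.172, exact permutation p = 0.254, SE 0.12) in males. With both sexes, where 0 of 9 members passed, it was -0.25 (limma p = 0.021, SE 0.101, adjusted p = 1, n = 10), and 0.141% of all genes passed 0.005.

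Fkbp5, whose product is a co-chaperone that lowers the affinity of the glucocorticoid receptor for hormone (ENSMUSG00000024222.16, chr17:28399095-28517524, minus strand), had 52.7, 78.7, 64.4, 63.1 and 68.0 CPM in control females and 66.2, 57.2, 57.4, 50.8 and 40.6 CPM in nPM females. Only 2 of the nPM females lay below the lowest control. The log2 fold change was -0.25 (limma p = 0.0855, exact permutation p = 0.111, SE 0.136) in females and 0.06 (limma p = 0.492, exact permutation p = 0.532, SE 0.0863) in males, and the difference between these effects had limma p = 0.0621. Sgk1, the gene of a kinase that acts on ion channels and transporters (ENSMUSG00000019970.15, chr10:21882184-21999903, plus strand), had a female log2 fold change of -0.25 (limma p = 0.22, exact permutation p = 0.317, SE 0.19). Zbtb16, a zinc-finger transcription factor gene (ENSMUSG00000066687.4, chr9:48654311-48835945, minus strand), had -0.16 (limma p = 0.265, exact permutation p = 0.286, SE 0.138). Pdk4, the gene of a mitochondrial kinase that inhibits pyruvate dehydrogenase (ENSMUSG00000019577.6, chr6:5483351-5496309, minus strand), had -0.06 (limma p = 0.783, exact permutation p = 0.81, SE 0.201).

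In males the one member near the threshold was a receptor. At limma p under 0.005, 0 of 10 members differed between nPM and control males, where 0.207% of all genes did, and no member's groups were separated, which 0.667% of all genes showed. At an unadjusted p under 0.05 it was 1 of 10, Nr3c2, against 4.28% of all genes. edgeR called 0 of 10 and DESeq2 1 of 10. Nr3c2 (ENSMUSG00000031618.13, chr8:76899442-77245012, plus strand) had 191, 281, 257, 243 and 269 CPM in control males and 333, 331, 339.6, 262 and 324 CPM in nPM males. Of the nPM males, 4 lay above every control male, and nPM male 4 lay among the controls. The log2 fold change was 0.36 (limma p = 0.00548, SE 0.107, adjusted p = 0.963), or 28.6% higher, with an exact permutation p of 0.0238. It passed 0.005 with DESeq2, without control male 2, without nPM male 4 and with the choroid plexus level as a covariate, with p between 0.00139 and 0.00417. In 8 of the 10 alternative settings it did not pass, with p up to 0.0104 among the limma, edgeR and DESeq2 tests. Nor did it pass in 8 of the 10 fits that left out 1 male (limma p up to 0.0169). The log2 fold change in those 10 fits lay between 0.27 and 0.43.

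In females Nr3c2 had 219, 210.3, 266, 308 and 288 CPM in controls and 251.9, 269.9, 308, 293 and 213 CPM after nPM, with the groups fully mixed. The log2 fold change there was 0.07 (limma p = 0.61, exact permutation p = 0.706, SE 0.129), and the difference between the male and female effects was 0.31 (limma p = 0.0895, SE 0.174). No member passed 0.005 for that difference, where 0.217% of all genes did. The 6 CA2/CA3 markers summed to 191 to 292 CPM in control males and 240 to 325 CPM in nPM males, which overlapped, 0 of the 6 were at 0, and their part in the Nr3c2 result was not tested. With group means removed, Nr3c2 and this sum had r = 0.769 (rho 0.653, permutation p = 0.00084, adjusted p = 0.101 over 240 relations, n = 20), r = 0.64 without the 2 samples farthest from the median, 0.698 in females and 0.864 in males. In males the dentate granule and oligodendrocyte marker sums had r of 0.855 and 0.852 with Nr3c2, and in females 0.254 and 0.0852.

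Nr3c1 and Hsd11b1 showed no exposure difference beyond the spread between mice. Nr3c1 (ENSMUSG00000024431.14, chr18:39410545-39491301, minus strand) had a log2 fold change of 0.06 (limma p = 0.619, exact permutation p = 0.73, SE 0.114) in females and -0.10 (limma p = 0.163, exact permutation p = 0.159, SE 0.0659) in males. Hsd11b1, whose enzyme regenerates active hormone from its inert form inside the cell (ENSMUSG00000016194.14, chr1:193221634-193264075, minus strand), had 0.15 (limma p = 0.206, exact permutation p = 0.206, SE 0.11) and 0.11 (limma p = 0.413, exact permutation p = 0.571, SE 0.128). Over females and males, exact permutation tests were run on 19 single comparisons, and 2 had p under 0.05, those of Hif3a in females and Nr3c2 in males (smallest adjusted p = 0.377 over the 19).

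Of the 9 tested members, 4 differed between the sexes at limma p under 0.005, in a comparison in which 31.1% of all genes did (13.9% higher and 17.1% lower in males), so their share is near the background. Nr3c1 was higher in males, and Fkbp5, Zbtb16 and Hif3a were lower. Nr3c1 had 132, 128, 115, 126 and 104 CPM in control females and 178, 181, 173, 172 and 159 CPM in control males, with no overlap, which 19.8% of all genes showed. In nPM mice it had 99.0, 120.2, 119, 153 and 139 CPM in females and 147, 161, 151, 173 and 175 CPM in males, where the highest female reached into the male range. The log2 difference, males against females, was 0.44 (limma p = 1.34e-06, SE 0.0667, adjusted p = 4.06e-05, n = 10).

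Zbtb16 had 97.8, 142, 102, 95.2 and 134 CPM in control females and 58.6, 56.4, 64.4, 66.6 and 64.4 CPM in control males. Its levels after nPM were 102, 104, 113, 74.96 and 108 CPM in females and 41.1, 55.5, 72.2, 69.6 and 82.4 CPM in males. The control sexes were separated and the nPM sexes met at 1 sample each, and the log2 difference was -0.77 (limma p = 6.98e-07, SE 0.11, adjusted p = 2.88e-05, n = 10). Hif3a, with the values given above, was lower in males by a change of -60.0% (log2 -1.32, SE 0.206, limma p = 2.31e-06, adjusted p = 5.54e-05, n = 10). Fkbp5 had 44.6, 41.3, 45.3, 43.6 and 48.3 CPM in control males and 40.8, 45.8, 56.1, 42.8 and 48.7 CPM in nPM males, a log2 difference from females of -0.37 (limma p = 0.000384, SE 0.0888, adjusted p = 0.0021, n = 10). Control males had no Fkbp5 value above the lowest control female, whereas nPM males and nPM females overlapped.

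Hsd11b1 was 19.4% higher in males, just short of the threshold (limma p = 0.00698, adjusted p = 0.021), and Pdk4 had a change of -18.4% (limma p = 0.0539, n = 10 per sex). Hsd11b1 passed 0.005 with DESeq2, with the replicate block and without control female 4 or control male 1, with p from 0.000161 to 0.00407. It did not pass in the other 8 of 10 settings, with p up to 0.112 among the limma and edgeR tests. Nor did it pass in 18 of the 20 fits that left out 1 sample (limma p up to 0.0184). Pdk4 passed with the choroid plexus covariate (log2 -0.40, limma p = 0.00381, n = 10) and in none of the other 9 settings. Nr3c2, Sgk1 and Tsc22d3 had limma p from 0.276 to 0.753. Plin4, given without a test, had a log2 difference of -1.30 (SE 0.238), close to that of Hif3a. Genes of the annotation classes TEC, for unverified transcripts, and sense intronic held 0.516% to 0.946% of a sample's counts in females and 0.297% to 0.522% in males, and with that share as a covariate 3 of the 9 members and 2031 of all genes passed, against 4 and 6147 without it. Fkbp5 no longer passed (limma p = 0.01, n = 10), with a log2 difference of -0.40 where it had been -0.37. With age as a covariate 0 of 9 members and 84 of all genes passed, in a design where the ages of the sexes do not overlap. The log2 difference was then 0.58 for Nr3c1 (limma p = 0.00902, n = 10), larger than without age, and -0.30, -0.35 and -0.42 for Fkbp5, Zbtb16 and Hif3a.

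**Figure D2:**
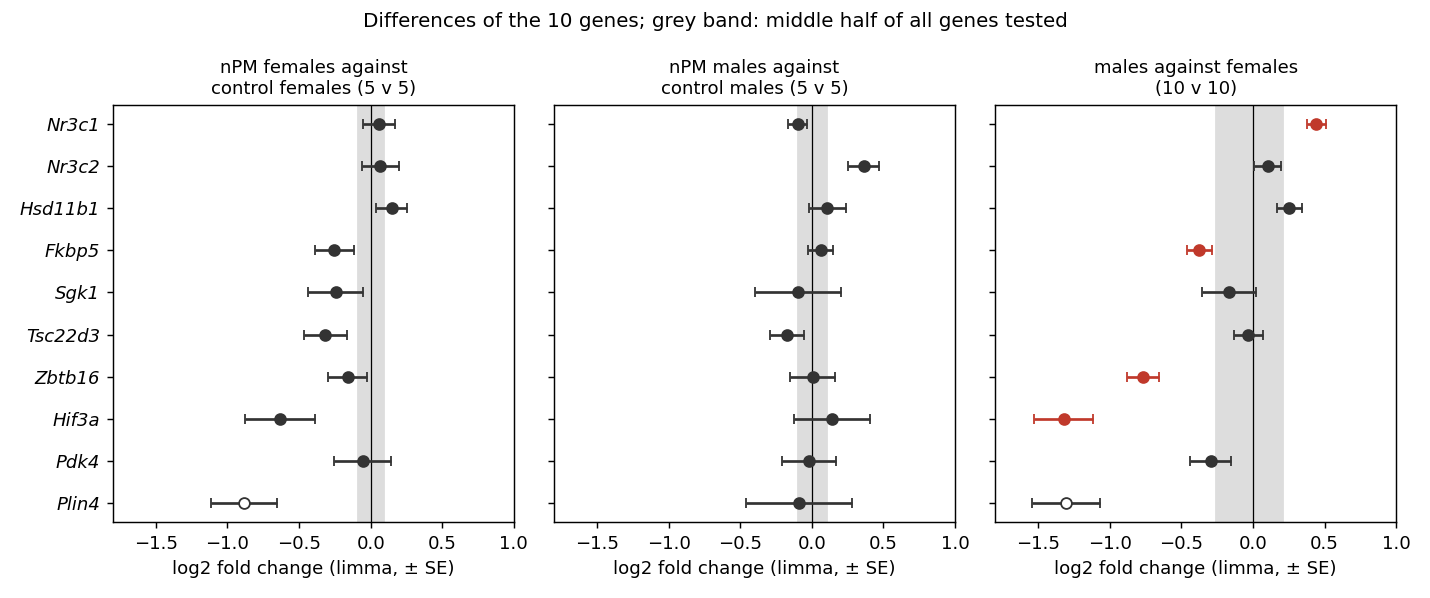
Log2 fold change of each of the 10 genes with its SE (limma), for nPM against control in females and in males (5 against 5) and for males against females (10 against 10). Red points passed p under 0.005, open points are Plin4 where it was not tested, and the grey band holds the middle 50% of all genes tested. Plin4 and Hif3a lie lowest in females and far left in the sex panel, while in the male exposure panel Nr3c2 lies furthest to the right.

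Whether the genes rose and fell together from mouse to mouse was asked after the mean of its own group had been subtracted from each log2 CPM value, so that the difference by which Plin4 was chosen does not enter. Across the 20 samples, r between the 7 targets had a median of 0.508 over 21 pairs (0.526 in females and 0.636 in males), from 0.0096 for Sgk1 with Zbtb16, which was -0.19 in females, to 0.835 for Sgk1 with Pdk4. Between a receptor or the enzyme and a target, r had a median of -0.145 over 21 pairs, with opposite signs in females (-0.297) and males (0.155). Of the 45 pairs of members, 1 passed an adjusted p of 0.05, Sgk1 with Pdk4 (r = 0.835, rho = 0.832, permutation p = 4e-05, adjusted p = 0.0018, n = 20). The other 44 did not, including the 9 pairs with Plin4.

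**Figure D3:**
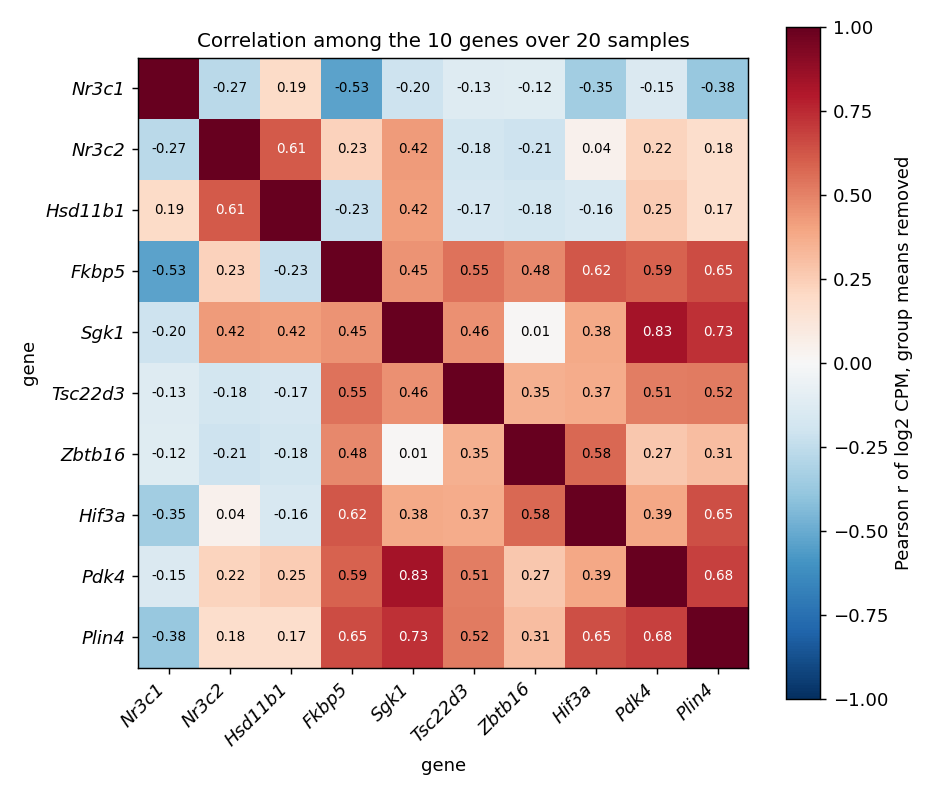
Pearson r of log2 CPM between the 10 genes over 20 samples, with the group means removed, from blue (negative) to red (positive). The block of the 7 targets at the lower right runs from near 0 (Sgk1 with Zbtb16) to its highest value for Sgk1 with Pdk4, and Nr3c1 is negative with each of the 7.

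Sgk1 had 165, 202, 184, 232 and 192 CPM in control females, 231, 204, 126, 176 and 107 CPM in nPM females, 104, 227, 228, 176 and 122 CPM in control males and 103, 245, 243, 114 and 119 CPM in nPM males. In nPM males, 2 samples had over 240 CPM and the other 3 under 120. Pdk4 had 11.2, 20.9, 14.6, 17.8 and 15.8 CPM in control females, 19.7, 18.9, 10.6, 15.99 and 12.4 CPM in nPM females, 9.25, 15.3, 13, 13.4 and 12.4 CPM in control males and 8.38, 15.5, 17.2, 11.9 and 11.3 CPM in nPM males. The same 2 nPM males, 2 and 3, were the highest of their group for Sgk1, Pdk4 and Plin4, and nPM male 1 was the lowest for all 3. These 2 mice also had the highest choroid plexus marker sums of their group, 3072 and 5611 CPM, and nPM male 1 the lowest, 76.6 CPM. That sum had r = 0.579 with Pdk4 (permutation p = 0.0142, adjusted p = 0.264, n = 20), 0.394 with Sgk1 and 0.385 with Plin4, with no adjusted p under 0.05, and its part in the pattern was not tested. For Sgk1 and Pdk4, r was 0.81 without the 2 samples farthest from the median of Sgk1, 0.839 in females and 0.88 in males, and it stayed between 0.808 and 0.871 with each sample left out. It was 0.697 in controls and 0.91 in nPM mice.

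Plin4 followed Sgk1 with r = 0.729 (rho 0.717, permutation p = 0.00674, adjusted p = 0.0758, n = 20), which became 0.658 without the 2 farthest samples, 0.708 in females and 0.738 in males. With Pdk4, r was 0.681 (rho 0.627, permutation p = 0.00478, adjusted p = 0.0717), 0.643 without the 2 farthest samples, 0.587 in females and 0.78 in males. With Fkbp5 it was 0.655 (rho 0.669, permutation p = 0.00257, adjusted p = 0.0578), 0.552 without the 2 farthest, 0.807 in females and 0.657 in males. With Hif3a it was 0.647 (rho 0.526, permutation p = 0.00899, adjusted p = 0.0809), 0.428 without the 2 farthest, 0.697 in females and 0.636 in males. r with Tsc22d3 was 0.518 and with Zbtb16 0.305, with adjusted p of 0.168 and 0.512. In controls and in nPM mice taken apart, r with Plin4 was 0.209 and 0.922 for Sgk1 and 0.329 and 0.832 for Pdk4. It was 0.466 and 0.731 for Fkbp5 and 0.377 and 0.74 for Hif3a. For Tsc22d3 it was -0.0545 and 0.81, and for Zbtb16 0.369 and 0.287. The pooled values thus rest largely on the nPM mice for all but Zbtb16, and the difference between controls and nPM mice was not tested. Over the 45 pairs, Plin4 with Fkbp5 had the smallest adjusted p after the Sgk1 and Pdk4 pair, and it passed 0.05 without any one of 8 samples.

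**Figure D4:**
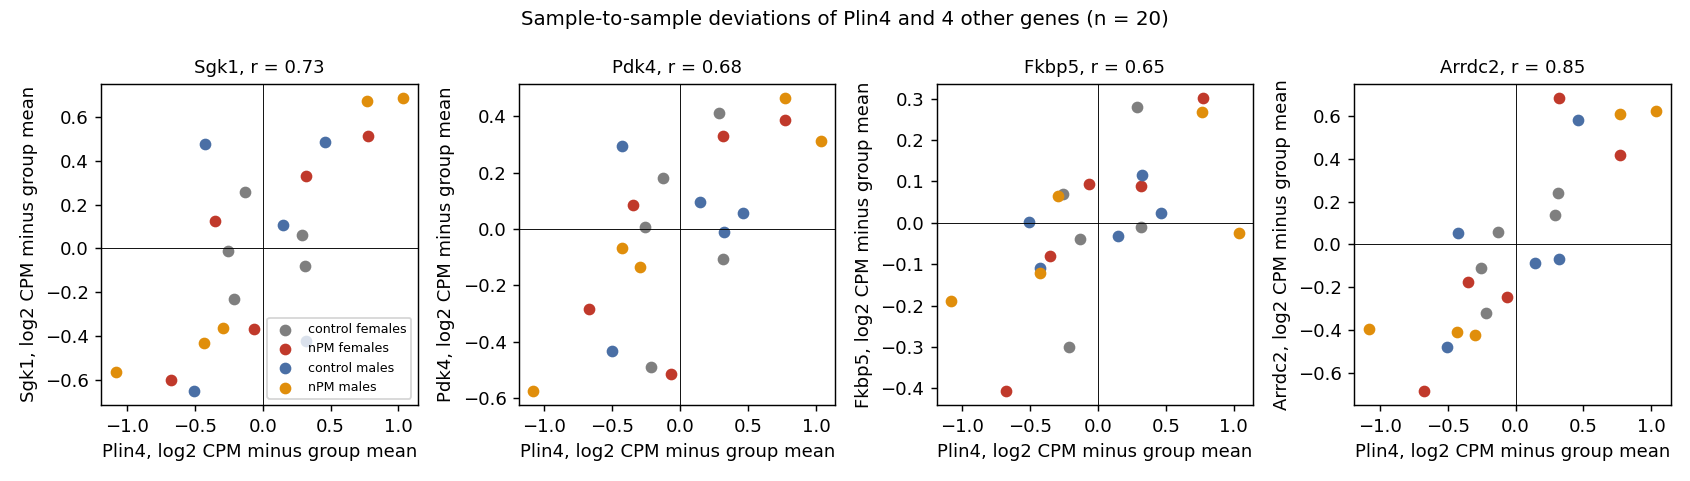
Log2 CPM of Sgk1, Pdk4, Fkbp5 and Arrdc2 (vertical axes) against that of Plin4 (horizontal axes), each minus its group mean, in 20 samples coloured by group. All 4 panels slope upward, with nPM males at both ends, and r runs from 0.65 for Fkbp5 to 0.85 for Arrdc2.

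Among all 19796 other genes, ranked by r with Plin4 as a description, Sgk1 stood 21st, Pdk4 45th, Fkbp5 77th, Hif3a 88th, Tsc22d3 468th and Zbtb16 3043rd, whereas Nr3c2, Hsd11b1 and Nr3c1 stood 5599th, 5685th and 17911th. The median r of all genes with Plin4 was -0.006, with quartiles of -0.208 and 0.209. The 5 genes closest to Plin4 were Itgad, an integrin subunit gene (r = 0.86), Prodh, the gene of proline dehydrogenase (0.86), Arrdc2, an arrestin-domain gene (0.85), Gm20383 (0.832) and Rhou, a small GTPase gene (0.824), each over 20 samples that share their depth and dissection. In females the nPM log2 fold change was -1.22 for Itgad (SE 0.313, adjusted p = 1), -0.29 for Rhou (SE 0.0793, adjusted p = 1), both past 0.005, which 0.0909% of all genes passed, and -0.03 for Prodh (SE 0.102, adjusted p = 1). Itgad, Rhou and Prodh were picked by their likeness to Plin4, which was chosen for its fall in these same females. Their female values are therefore a description and lend no independent support. Arrdc2 was also the gene closest to Sgk1 (r = 0.881), ahead of Adipor2 (0.856) and Pdk4.

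The closest genes of the other members were largely different ones. For Pdk4 they were Anln (r = 0.84), Gm9855 (0.838) and Sgk1, for Fkbp5 Chst11 (0.813), Dpy19l3 (0.786) and Strn (0.774), and for Tsc22d3 Dynll1 (0.842), Htr5b (0.809) and Taf8 (0.792). For Zbtb16 they included Shank2 (0.898) and Hdac4 (0.887), and for Hif3a S100a3 (0.884), Mlph (0.831) and Ankrd63 (0.788). For the receptors they were 9130024F11Rik (0.895), Tgm3 (0.893) and Strbp (0.88) with Nr3c1, and Zeb2 (0.89), Iyd (0.887) and Slc17a8 (0.86) with Nr3c2. For Hsd11b1 they were Gm816 (0.831), Lrrd1 (0.802) and Snora62 (0.79).

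Promoter sequence is shown for Sgk1, Pdk4 and Plin4, the 3 targets with the highest r among each other, so that their starts can be set side by side. RefSeq windows from 250 bases before to 50 after a transcription start (GRCm38.p6) existed for 8 of the 10 members, 15 windows in all. They were searched for the full receptor-binding palindrome, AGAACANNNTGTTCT, and for either of its 6-base arms, AGAACA or TGTTCT, on both strands, since each arm is the reverse complement of the other. The palindrome, which holds both arms, was in 3 of 32851 windows (0.00913%), and 1 of the 3 belongs to Sgk1. An arm was in 19.0% of all windows, in 3 of the 6 windows of Sgk1, in 1 of the 3 of Tsc22d3, and in none of the single windows of Nr3c2, Hsd11b1, Fkbp5, Hif3a, Pdk4 and Plin4. The 250 bases before the RefSeq start are given 5′ to 3′ on the strand of the gene, with the palindrome's arms in capitals. Of the 6 Sgk1 windows, the window printed was picked because it holds the palindrome, while Pdk4 and Plin4 had 1 window each. The genes as counted reach into these windows, over the last 21 bases for Plin4, the last 31 for Pdk4 and all 250 for Sgk1, whose counted gene begins farther upstream.
Sgk1, chr10:21993640-21993889, plus strand: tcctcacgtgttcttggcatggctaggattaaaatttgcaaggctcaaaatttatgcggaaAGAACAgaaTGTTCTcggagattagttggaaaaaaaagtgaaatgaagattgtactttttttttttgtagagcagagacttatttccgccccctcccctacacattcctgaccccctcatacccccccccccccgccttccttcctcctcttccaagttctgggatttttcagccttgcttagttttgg
Pdk4, chr6:5496279-5496528, minus strand: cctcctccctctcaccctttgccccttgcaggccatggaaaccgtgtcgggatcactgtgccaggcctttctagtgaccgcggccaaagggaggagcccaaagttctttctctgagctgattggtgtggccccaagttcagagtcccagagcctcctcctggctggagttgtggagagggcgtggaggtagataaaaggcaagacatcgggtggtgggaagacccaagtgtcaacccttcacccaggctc
Plin4, chr17:56109783-56110032, minus strand: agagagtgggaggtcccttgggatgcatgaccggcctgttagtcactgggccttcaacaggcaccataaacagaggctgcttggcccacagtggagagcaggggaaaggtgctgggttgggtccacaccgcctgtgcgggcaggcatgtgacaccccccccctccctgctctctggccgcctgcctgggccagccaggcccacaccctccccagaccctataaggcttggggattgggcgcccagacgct
In the Sgk1 sequence the palindrome begins 189 bases before the start, and a further arm lies near the far end. The match is of letters alone, no binding was measured in these samples, and the absence of these letters from a window says nothing of sites elsewhere.

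Beyond the members, a list of 35 other glucocorticoid targets leaned the same way in females without any gene passing the test. Of the 34 tested, 0 passed 0.005 in females and 27 had a log2 fold change below 0, with a median of -0.139, against 48.8% and 0.004 for all genes. These values come from the same females in which Plin4 was chosen, and they are not 34 independent observations. Since the list also followed Plin4 from mouse to mouse, as given below, its lean is a description and no separate support. In males it was 19 of 34, with a median of -0.012, against 50.4% and -0.001. The smallest female p-values were those of Arrdc2 (-0.52, SE 0.215, adjusted p = 1) and Cdkn1a, the gene of the cell-cycle inhibitor p21 (-0.82, SE 0.349, adjusted p = 1). With both sexes, Cebpd, an early-acting transcription factor gene, passed in the other direction (0.41, SE 0.118, adjusted p = 1). Between the sexes 5 of 34 passed, all lower in males, a share no higher than the 17.1% of all genes that were lower: Per1 (-0.60), Cdkn1a (-0.99), Mertk (-0.53), Xdh (-1.33) and Map3k6 (-0.70), with adjusted p between 9.72e-08 and 0.0039.

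These targets also followed Plin4 from mouse to mouse. With group means removed, their median r was 0.456 with Plin4 and with Pdk4, 0.408 with Tsc22d3, 0.362 with Sgk1 and 0.288 with Fkbp5. It was lower with Zbtb16 (0.194) and Hif3a (0.153). Over all genes the median r with each of these members lay between -0.0135 and 0.0177. Klf15, a metabolic transcription factor gene, had r = 0.752 with Plin4, and Xdh, the gene of xanthine dehydrogenase, 0.712, whereas Dusp1, a MAP kinase phosphatase gene, had -0.227. The summed level of the list had r = 0.771 with Plin4 (rho 0.752, permutation p = 0.00018, adjusted p = 0.0432 over 240 relations of 10 members with 24 lists, n = 20), 0.659 without the 2 farthest samples, 0.507 in females and 0.929 in males. This was the 1 relation of the 240 past 0.05 by r, and it held in 6 of the 20 analyses that left out 1 sample (adjusted p from 0.0024 to 0.185). By rho it passed too (permutation adjusted p = 0.0228), and so did Tsc22d3 with the summed hypoxia targets. That relation had rho 0.753 (permutation adjusted p = 0.0216) and r = 0.684 (permutation adjusted p = 0.171). Plin4's r with the sums of 14 cell-type and region marker lists lay between -0.361 (thalamus) and 0.522 (CA2/CA3), with no adjusted p under 0.298. Within 1 sex it reached -0.802 in females (endothelial) and 0.847 in males (microglia), where the same lists had 0.202 in males and -0.125 in females.

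The remaining lists of the pathway held no gene past 0.005 in any exposure comparison. These were 12 receptor chaperones, 10 coregulators, 7 of 9 steroid enzymes and exporters, 7 of 10 stress peptides and receptors, 14 of 16 perilipins and droplet proteins, 17 of 19 fat oxidation genes, 17 of 18 paralogs of the members, 12 hypoxia targets and 14 clock genes (tested of listed). Plin2, Plin3 and Plin5, the other perilipins measured, had female log2 fold changes of 0.14 (SE 0.2), -0.01 (SE 0.2) and -0.03 (SE 0.307), with limma p from 0.498 to 0.947, and Plin1 did not pass the filter. Crh, the gene of corticotropin-releasing hormone, had -0.93 in males (SE 0.366, adjusted p = 0.963). Between the sexes, 6 of 12 chaperones were higher in males, beside 13.9% of all genes. Among them were Hsp90aa1 (0.33, adjusted p = 0.00268) and St13 (0.31, adjusted p = 3.84e-05). Of the coregulators, 6 of 10 were lower, beside 17.1% of all genes. These counts were not repeated with age or the share of TEC and sense intronic counts as a covariate. With those covariates 84 and 2031 of all genes passed between the sexes, against 6147 without.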

How the data were processed

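Hippocampal RNA of 20 mice was measured by RNA-seq. The authors depleted ribosomal RNA, mapped the reads with HISAT2 (mm10) and assigned them to Gencode M11 genes with featureCounts 1.5.0-p3, per the methods and the submitters' processing notes. The deposited counts are whole numbers for 48709 genes, without normalization; the strand setting and the treatment of multiply aligned reads are not given in the sources used here. The deposited mean RPKM per gene was checked against RPKM recomputed from the counts, and differed by at most 4.9e-11.

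Genes were kept by filterByExpr (minimum count 10, total 15), scaled by TMM (edgeR 4.0.16) and fitted with limma-voom (limma 3.58.1, R 4.3.3), with sex as a covariate, within each sex, for the interaction, and for sex with exposure as a covariate. The threshold was p under 0.005, beside a Benjamini-Hochberg adjusted p under 0.05 over all 19797 genes. Correlations used log2 CPM minus group means, with 100000 permutations within groups. Single comparisons of 5 against 5 used two-sided exact permutation (smallest p 0.00794). The fits and correlations were tested on simulated data. Pairs of samples within a group differed by 14.1 to 76.7 times counting noise (40 pairs), so none were duplicates.

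The members, gene lists and tests were chosen with earlier results of these data known. All members were named, with list genes past 0.005 in any fit or used as examples, the 5 genes most like Plin4 and the 3 most like each other member, save some genes not reported here; Plin2, Plin3, Plin5, Crh, Klf15 and Dusp1 were picked after their values were seen. DESeq2 1.42.0, edgeR's quasi-likelihood test, RLE scaling, no filter, age, a replicate block, single left-out samples and, added after seeing the data, choroid plexus and intronic-share covariates were the alternatives. Replicate numbers did not pair the samples: the correlation of same-numbered samples ran from -0.364 to 0.157. Promoters were RefSeq windows (GRCm38.p6). Figures were drawn with Python 3.11.15 and matplotlib 3.10.9.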

Additional observations from a re-analysis of the deposited data

Results flagged for a closer look

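Among 40 sets of 5 mice (10 genes in 4 groups), 3 had 1 mouse far from the other 4, where chance alone gives about 2. Nr3c2 was low in nPM male 4 (log2 CPM 8.03, 262 CPM, against 324 to 339.6 CPM in the other 4), the mouse without which the Nr3c2 difference in males passed 0.005. Hsd11b1 was low in control male 1 (log2 CPM 4.29, 19.6 CPM, against 29.3 to 32.9 CPM), and without that mouse the sex difference of Hsd11b1 passed 0.005 (log2 0.31). Zbtb16 was low in nPM female 4 (log2 CPM 6.23, 74.96 CPM, against 102 to 113 CPM). What set these mice apart was not tested.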

How the results depend on the processing

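Members past 0.005 numbered 0 in females, in both sexes and for the interaction under every alternative run. In males there were 1 with DESeq2 and 1 with the choroid plexus covariate (Nr3c2 both times), and between the sexes 0 with age as covariate. Genes past 0.005 numbered 66 for the interaction with edgeR, and 43, 55, 113 and 89 with DESeq2 in both sexes, females, males and the interaction. With no filter they were 71, 87, 130 and 149. They were 84 between the sexes with age, 72 in males with the choroid plexus covariate, and 40, 97 and 2031 in females, for the interaction and between the sexes with the intronic share. With the replicate block, 67 genes passed for the interaction and 4 pairs of members were called, and the count of members past 0.005 changed only between the sexes, to 5 with Hsd11b1. The replicate numbers did not pair the samples.

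Log2 fold changes near 0 changed sign. In males, with edgeR, DESeq2, the replicate block, the choroid plexus covariate and the intronic share, Plin4 had 0.11, 0.11, 0.0176, 0.065 and 0.11 and Pdk4 0.0203, 0.0178, 0.0055, 0.0447 and 0.0706. With the intronic share, Sgk1 had 0.11 and Zbtb16 -0.043 in males. Sgk1 had 0.14 between the sexes with age, and Hsd11b1 0.0067 for the interaction with the choroid plexus covariate. The r of Sgk1 and Zbtb16 was -0.00421, -0.11 and -0.0256 without mitochondrial genes and with the choroid plexus level or the intronic share removed. The r of Plin4 and the summed other targets had adjusted p = 0.0504, 0.0576 and 0.0584 by permutation with RLE scaling, without mitochondrial genes and with the choroid plexus level removed. The causes were not tested.

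With each sample left out in turn, genes past 0.005 numbered 17 to 47 in both sexes, 10 to 48 in females, 23 to 78 in males and 24 to 77 for the interaction. Members past 0.005 in males numbered 0 to 1, with Nr3c2 passing without control male 2 or nPM male 4. Pairs of members called numbered 1 to 4, being 4 without control female 3, control male 2 or 5, or nPM female 3, 3 without nPM male 2, and 2 without control female 5, control male 1, nPM female 5, or nPM male 5. Exact tests under 0.05 numbered 1 to 3, with 1 left without control female 2, 3 or 5 or nPM female 2, 4 or 5. Log2 fold changes that changed sign had these ranges. In both sexes they were -0.0602 to 0.0017 for Nr3c1 and -0.11 to 0.0206 for Pdk4. In females they were -0.0136 to 0.14 for Nr3c1, -0.0026 to 0.15 for Nr3c2 and -0.18 to 0.0787 for Pdk4. In males they were -0.0153 to 0.16 for Hsd11b1, -0.0168 to 0.0992 for Fkbp5, -0.28 to 0.0347 for Sgk1, -0.10 to 0.15 for Zbtb16, -0.0504 to 0.40 for Hif3a, -0.15 to 0.12 for Pdk4 and -0.34 to 0.19 for Plin4. For the interaction they were -0.14 to 0.0296 for Hsd11b1, -0.0173 to 0.29 for Sgk1 and -0.0858 to 0.19 for Pdk4. Between the sexes they were -0.0903 to 0.0335 for Tsc22d3. Values of r ran from -0.26 to 0.11 for Sgk1 with Zbtb16, -0.0137 to 0.39 for Zbtb16 with Pdk4 and -0.023 to 0.46 for Zbtb16 with Plin4, and from 0.71 to 0.84 for Plin4 with the summed other targets.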
